A study of Mus musculus with 12 samples.

Results

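Imprinted genes were examined in mouse pre-B cells that BCR-ABL1 had transformed, which model acute lymphoblastic leukemia of B cells. A list of 10 imprinted genes was matched by symbol to the 12151 genes of the table, and 6 had a row, namely H19, Igf2, Grb10, Igf2r, Impact and Cdkn1c. Peg3, Mest, Plagl1 and Meg3 had no row in the table analysed here. The genes were selected by symbol, but with the levels of these libraries already known, above all the KO and WT levels of H19. The difference between genotypes is therefore described for H19 and, because of its flat WT level, Igf2 without a test.

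The pre-B cells were grown from bone marrow of mice aged 6 to 12 weeks and carried the Ctnnb1 Ex3fl/+ genotype, in which exon 3 of one allele of the β-catenin gene is floxed. Excision of this exon removes the phosphorylation sites that mark β-catenin for degradation. As the protocol reads, the cells of all 12 libraries had passed through electroporation with Cas9 ribonucleoprotein, single-cell cloning, transduction with a GFP vector, sorting for GFP+ cells and 4-hydroxytamoxifen (4-OHT). The 4 groups of 3 libraries were ERT2 WT (sgNTC, nontargeting guides, with the empty ERT2 vector), Cre-ERT2 WT (sgNTC with inducible Cre), ERT2 KO (guides against Ikzf1 and Ikzf3, with ERT2) and Cre-ERT2 KO (the same guides with Cre-ERT2). The protocol gives day 1 after 4-OHT, in a sentence written for ChIP-seq. The single-cell lines are not assigned to libraries, so genotype and clone cannot be told apart, and the replicates may be technical, in which case the p-values below measure only the spread between libraries.

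Values are the authors' normalized log2 values. The deposited table holds no counts, so depth is unknown and precision rests on the replicates. Library medians lay between 9.06 and 9.11. As a check of the labels, Ikzf1 mRNA was higher in libraries labelled KO (log2 difference 1.01 among ERT2 and 0.90 among Cre-ERT2 libraries) and Ikzf3 was lower (-0.65 and -0.70), so the Ikzf1 mRNA level does not itself show the knockout, and KO denotes the label. All 12 B lineage markers had a row, but 0 of 10 fibroblast and stromal and 0 of 6 erythroid markers did. Differences below are differences of log2 values, KO minus WT or Cre-ERT2 minus ERT2, and the latter is called the β-catenin effect. A gene was called at a Benjamini-Hochberg adjusted p under 0.05 in a limma fit over all 12151 genes.

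Imprinted genes are transcribed mainly from the allele inherited from one parent. The parental alleles are told apart by DNA methylation at an imprinting control region, which is set in the germline. H19 and Igf2 share such a region on distal mouse chromosome 7: the insulator protein CTCF binds it on the maternal allele, where H19 is expressed, and methylation prevents this binding on the paternal allele, where Igf2 is expressed. H19 is a long noncoding RNA abundant in the embryo and silenced in most tissues after birth. Igf2 is a fetal growth factor, Igf2r takes it up for degradation, and Grb10 and Cdkn1c restrain growth. Allele of origin cannot be read from gene-level values, so imprinting itself was not measured.

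The H19 gene (ENSMUSG00000000031, lincRNA) lies at chr7:142575529-142578143 on the minus strand in GRCm38. Its RNA is also the precursor of miR-675, which lies within an exon of 3 of the 4 H19 transcripts that span it. Igf2 (ENSMUSG00000048583, chr7:142650766-142666816, minus strand) carries miR-483 between its exons, spanned by 7 Igf2 transcripts and in an exon of none. The mature sequences are shown because both host genes differed between the genotypes, with the seed (bases 2 to 8) in capitals, from RefSeq on GRCm38.p6. The libraries measured polyadenylated RNA, so no level of these microRNAs was measured.
mmu-miR-675-5p: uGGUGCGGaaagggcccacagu
mmu-miR-675-3p: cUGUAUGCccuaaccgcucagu
mmu-miR-483-5p: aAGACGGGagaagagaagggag
mmu-miR-483-3p: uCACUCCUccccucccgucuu
The 4 mature microRNAs had 4 different seeds, so none of them shared its seed with another.

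H19 was high in the libraries labelled KO and low in WT libraries. It was 7.02, 6.67 and 6.66 in ERT2 WT (mean 6.78 ± 0.20, SD, n = 3) and 6.67, 6.67 and 6.68 in Cre-ERT2 WT libraries (6.67 ± 0.0080). In KO cells it was 10.07, 10.10 and 10.15 with ERT2 (10.11 ± 0.042) and 9.47, 9.44 and 9.56 with Cre-ERT2 (9.49 ± 0.058). The lowest KO library thus lay above the highest WT library. Among the WT libraries 5 lay between 6.66 and 6.68, and ERT2 WT replicate 1 stood 0.34 above the next of them. The order was ERT2 KO, Cre-ERT2 KO and then the WT groups, which overlapped.

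The KO minus WT difference of H19 was 3.32 (SE 0.075, 95% interval 3.16 to 3.49) among ERT2 libraries, which ranked 9 from the top of 12151 genes. Among Cre-ERT2 libraries it was 2.82 (SE 0.075, 2.66 to 2.98) and ranked 13. These ranks describe a gene that was chosen for its difference. H19 may also have kept its row in the table only through the KO libraries, so no p is given.

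The levels of both KO groups were known when H19 was chosen, and its row may rest on them. The rank and p-values of its β-catenin effect in KO cells are therefore given as descriptions. In KO cells H19 fell by 0.62 on the log2 scale (SE 0.075, limma adjusted p = 0.000134), the fifth lowest effect of the 12151 genes, and all 3 Cre-ERT2 KO libraries lay below all 3 ERT2 KO libraries. The exact 2-sided permutation test gave p = 0.1, the smallest that 3 against 3 libraries allow. In WT cells the difference was -0.11 (SE 0.075, limma adjusted p = 0.395) and the groups overlapped. Without ERT2 WT replicate 1 that WT difference was 0.0039. The difference between the 2 effects was -0.50 (SE 0.11). It is given without a test, because 5 of the 6 WT libraries lay at one flat level. The value that a gene without reads takes is not given in the sources used here, so whether a fall of H19 could be seen in WT cells is not known.

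Igf2 lies 72.6 kb from H19, and its values followed a like order. It was 5.34 in each of the 6 WT libraries, which spanned only 0.0011. Of 625 genes with a WT mean within 0.5 of it, 4 (0.64%) had a narrower WT range, and the median range of these genes was 0.071. In KO libraries Igf2 was 5.97, 5.99 and 6.11 with ERT2 (6.02 ± 0.073, SD, n = 3) and 5.51, 5.52 and 5.56 with Cre-ERT2 (5.53 ± 0.030). The 3 groups ERT2 KO, Cre-ERT2 KO and WT therefore stood apart in that order, with all WT libraries at one level.

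Igf2 differed between KO and WT by 0.68 (SE 0.030) among ERT2 libraries and 0.19 (SE 0.030) among Cre-ERT2 libraries, and no test is given for the reason stated for H19. In KO cells the β-catenin effect on Igf2 was -0.49 (SE 0.030, limma adjusted p = 2.44e-07), the tenth lowest of all genes, with no overlap. This rank and p are descriptions, as for H19. The SE and p also rest on a spread pooled over all groups, and Igf2 hardly varied in WT libraries. Fitted to the compared groups only, the effect in KO cells had limma adjusted p = 0.000431. In WT cells the β-catenin effect on Igf2 was 0.00014, and the difference between the effects was -0.50 (SE 0.042). For the same reason as for H19, whether a fall of Igf2 from 5.34 could be seen is not known, and no test of this difference is given.

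**Figure D1:**
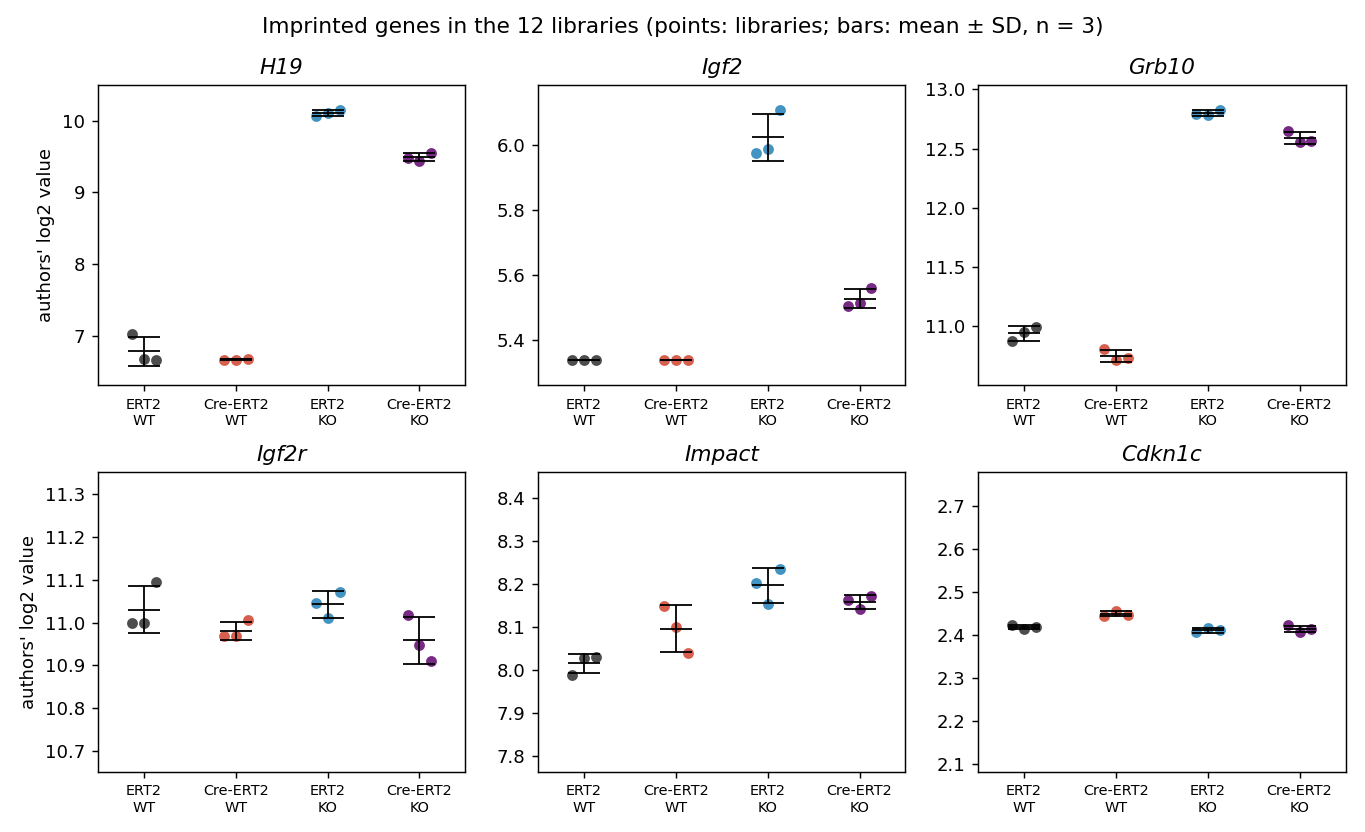
Value of each of the 6 imprinted genes in the 12 libraries, on the authors' log2 scale, which starts and ends at other values in each panel. Points are libraries and bars give the mean ± SD of 3 libraries. H19, Igf2 and Grb10 stand higher in both KO groups than in both WT groups, whereas Igf2r overlaps in each pair of groups compared and Cdkn1c stays between 2.41 and 2.46.

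Grb10 encodes an adaptor protein that binds the insulin and IGF1 receptors and dampens their signal. The gene (ENSMUSG00000020176) lies at chr11:11930508-12038683 on the minus strand, 157.6 kb from Ikzf1, one of the edited genes. Its values were 10.88, 10.96 and 10.99 in ERT2 WT (10.94 ± 0.060, SD, n = 3) and 10.81, 10.72 and 10.73 in Cre-ERT2 WT libraries (10.75 ± 0.049). In KO libraries they were 12.79, 12.78 and 12.83 with ERT2 (12.80 ± 0.022) and 12.65, 12.55 and 12.56 with Cre-ERT2 (12.59 ± 0.052). No group overlapped another, and the order was ERT2 KO, Cre-ERT2 KO, ERT2 WT and Cre-ERT2 WT.

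Grb10 was 1.86 higher in KO than in WT cells among ERT2 libraries (SE 0.036, limma adjusted p = 3.49e-13) and 1.83 higher among Cre-ERT2 libraries (SE 0.036, limma adjusted p = 3.5e-13). These differences ranked 40 and 45 from the top of all genes. Like the other genes here, Grb10 was selected with the levels of these libraries already known, which limits what its ranks and p-values show. Grb10 was also lower with Cre-ERT2 than with ERT2 in either genotype. The β-catenin effect was -0.19 in WT cells (limma adjusted p = 0.0045) and -0.21 in KO cells (limma adjusted p = 0.00189), each with SE 0.036. A difference between these effects was not called (-0.023, 95% interval -0.13 to 0.088, limma adjusted p = 0.876).

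RefSeq promoter entries (GRCm38.p6) matched 3 of the 6 genes, with 7 entries for Igf2, Grb10 and Igf2r. Both Grb10 entries are shown because of the genotype difference, in the direction of transcription from 250 bases before to 50 after a start site. The core letters of the Ikaros binding motif, GGGAA or its reverse complement TTCCC, are in capitals. The first holds 1 match and 80.0% G or C, and the second holds no match.
Grb10, chr11:12037371-12037670, minus strand: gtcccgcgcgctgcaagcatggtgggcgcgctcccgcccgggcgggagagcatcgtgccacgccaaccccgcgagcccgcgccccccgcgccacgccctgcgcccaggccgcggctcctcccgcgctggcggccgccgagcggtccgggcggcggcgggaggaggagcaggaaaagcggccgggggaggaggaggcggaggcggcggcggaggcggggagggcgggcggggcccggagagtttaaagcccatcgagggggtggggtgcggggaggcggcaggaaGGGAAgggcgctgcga
Grb10, chr11:12027922-12028221, minus strand: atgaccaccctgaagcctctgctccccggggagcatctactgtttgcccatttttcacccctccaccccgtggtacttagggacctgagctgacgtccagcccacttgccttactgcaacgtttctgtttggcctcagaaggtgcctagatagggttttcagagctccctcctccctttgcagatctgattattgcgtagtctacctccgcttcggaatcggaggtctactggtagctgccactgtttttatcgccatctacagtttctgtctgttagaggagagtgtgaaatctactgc
Of the 4 Igf2 entries 2 held no match and 1 held a single match, and the remaining one, shown because Igf2 differed, held 4.
Igf2, chr7:142661222-142661521, minus strand: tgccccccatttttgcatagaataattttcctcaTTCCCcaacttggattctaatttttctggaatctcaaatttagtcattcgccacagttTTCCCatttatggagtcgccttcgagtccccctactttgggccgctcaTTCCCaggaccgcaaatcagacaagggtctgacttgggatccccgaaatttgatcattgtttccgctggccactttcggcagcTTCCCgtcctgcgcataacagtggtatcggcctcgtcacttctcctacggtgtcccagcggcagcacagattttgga
The Igf2r entry, from a gene without a called difference, also held 1 match and is shown for comparison.
Igf2r, chr17:12769657-12769956, minus strand: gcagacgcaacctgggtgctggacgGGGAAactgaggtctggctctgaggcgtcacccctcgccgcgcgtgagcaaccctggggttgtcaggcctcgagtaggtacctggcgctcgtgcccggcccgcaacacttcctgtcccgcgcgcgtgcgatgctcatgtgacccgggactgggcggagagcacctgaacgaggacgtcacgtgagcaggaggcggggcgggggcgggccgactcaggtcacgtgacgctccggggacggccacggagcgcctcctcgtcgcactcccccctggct
On either strand, GGGAA occurs in 62.7% of 32851 mouse promoters of this length, with a median of 1 match, so a match here is common and is a description of letters only.

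Igf2r encodes the cation-independent mannose 6-phosphate receptor, which carries hydrolases to lysosomes and takes IGF2 from the cell surface for degradation. The gene (ENSMUSG00000023830, chr17:12682406-12769664, minus strand) overlaps Airn, the antisense RNA that silences it on the paternal allele, over 28.4 kb. The library kit marks strand, but whether counting used it is not given in the sources used here, so reads of this overlap may not be separable. Igf2r was 11.00, 11.00 and 11.09 in ERT2 WT, 10.97, 10.97 and 11.01 in Cre-ERT2 WT, 11.05, 11.01 and 11.07 in ERT2 KO and 11.02, 10.95 and 10.91 in Cre-ERT2 KO libraries. All 4 groups overlapped in each comparison made.

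No difference of Igf2r was called. KO minus WT was 0.012 among ERT2 (95% interval -0.061 to 0.086, limma adjusted p = 0.775) and -0.022 among Cre-ERT2 libraries (-0.096 to 0.051, limma adjusted p = 0.597). The β-catenin effect was -0.050 in WT (-0.12 to 0.024, limma adjusted p = 0.41) and -0.084 in KO cells (-0.16 to -0.011, limma adjusted p = 0.137). A change larger than these bounds would have been outside the intervals, but the p-values do not show that Igf2r stayed the same. Airn was called only among Cre-ERT2 libraries, where it was 0.085 higher in KO cells (limma adjusted p = 0.00232), against 0.014 among ERT2 libraries (limma adjusted p = 0.572). The change in the Airn difference was not tested on its own.

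Impact encodes a protein that binds GCN1 and limits activation of the kinase GCN2 (Eif2ak4), which responds to amino acid shortage. The gene (ENSMUSG00000024423, chr18:12955852-12992950, plus strand) is expressed from the paternal allele in mice. It was 7.99, 8.03 and 8.03 in ERT2 WT (8.02 ± 0.023, SD, n = 3) and 8.15, 8.10 and 8.04 in Cre-ERT2 WT libraries (8.10 ± 0.055). It was 8.20, 8.15 and 8.24 in ERT2 KO (8.20 ± 0.041) and 8.16, 8.14 and 8.17 in Cre-ERT2 KO libraries (8.16 ± 0.016). The ERT2 WT libraries were the lowest of the 12, and in the comparisons without ERT2 WT the groups overlapped.

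Impact rose in KO over WT cells by 0.18 among ERT2 libraries (SE 0.033, limma adjusted p = 0.000363). Among Cre-ERT2 libraries the difference was 0.063 (95% interval -0.0083 to 0.13, limma adjusted p = 0.119), and it was called without Cre-ERT2 WT replicate 1 (0.089, limma adjusted p = 0.0429). The β-catenin effect was 0.081 in WT cells (0.0099 to 0.15, limma adjusted p = 0.144), where the groups did not overlap, and -0.039 in KO cells (limma adjusted p = 0.513). The difference between these effects was -0.12 and was not called (limma adjusted p = 0.198).

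Cdkn1c encodes p57, a cyclin-dependent kinase inhibitor. The gene (ENSMUSG00000037664, chr7:143458339-143461050, minus strand) lies 880.2 kb from H19, in a separate imprinted domain. It was 2.42, 2.41 and 2.42 in ERT2 WT, 2.45, 2.46 and 2.45 in Cre-ERT2 WT, 2.41, 2.42 and 2.41 in ERT2 KO and 2.42, 2.41 and 2.41 in Cre-ERT2 KO libraries. Cre-ERT2 WT was the only group that stood apart, and it did so by very little.

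Cdkn1c was 0.031 higher with Cre-ERT2 in WT cells (SE 0.0061, limma adjusted p = 0.00519), and this call was lost when each library was centred on its median (0.025, limma adjusted p = 0.056) or when limma's prior did not depend on the mean (limma adjusted p = 0.163). In KO cells the effect was 0.0025 (limma adjusted p = 0.852). KO minus WT was -0.0070 among ERT2 (limma adjusted p = 0.347) and -0.035 among Cre-ERT2 libraries (limma adjusted p = 0.000259). The ERT2 difference became -0.039 and was called after median centring (limma adjusted p = 0.000774). Differences of this size reached the threshold through a small spread at a low value, and the transformation that gave the value is not given in the sources used here.

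**Figure D2:**
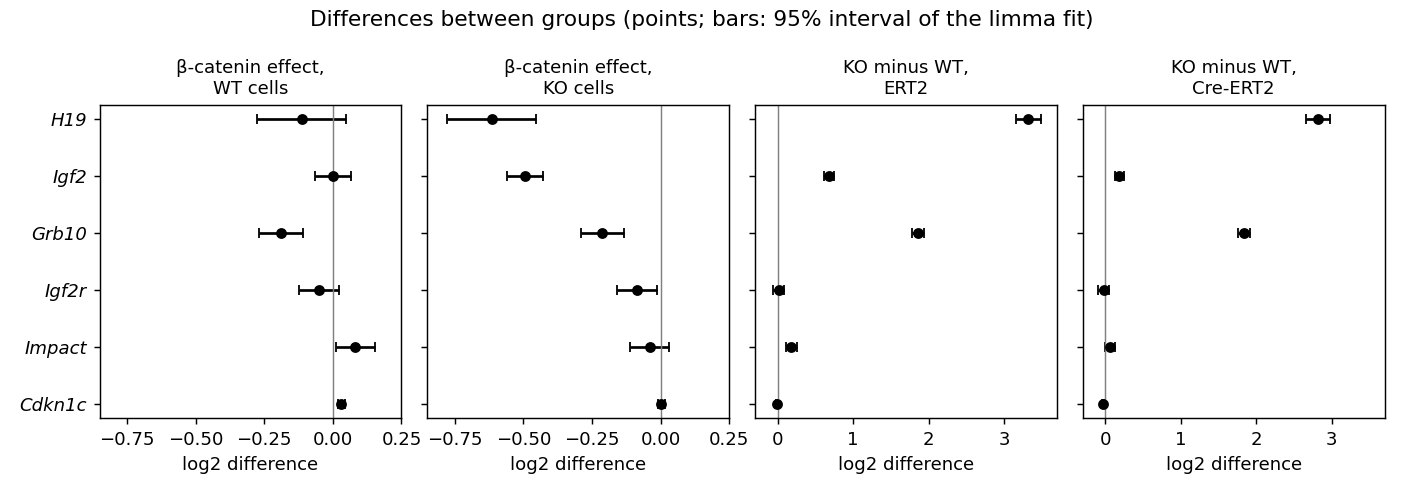
Log2 differences of the 6 imprinted genes for the β-catenin effect in each genotype (left pair of panels) and for KO minus WT with each vector (right pair, on a wider axis). Points are estimates and bars 95% intervals of the limma fit. The fall of H19 (-0.62) and Igf2 (-0.49) with Cre-ERT2 appears in KO cells, and Grb10 lies at about -0.2 in both genotypes.

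Counted over the 6 genes, 3 fell with Cre-ERT2 in KO cells (H19, Igf2 and Grb10), of which H19 and Igf2 are given as descriptions. In KO cells 12.6% of all genes were called (7.27% higher and 5.33% lower) and the groups of 28.3% of all genes did not overlap. In WT cells Grb10 fell and Cdkn1c rose, against 11.9% of all genes called (5.93% higher and 5.95% lower) and 31.1% without overlap. The difference between the effects was called for 4.53% of all genes (2.71% positive and 1.82% negative) and for 0 of Grb10, Igf2r, Impact and Cdkn1c in the limma fit, of which Impact and Cdkn1c had 95% intervals that did not include 0. Of the 4 genes tested between genotypes, 2 were called among ERT2 libraries (Grb10 and Impact, both higher), where 59% of all genes were called (29.8% higher and 29.3% lower) and 65.5% did not overlap. Among Cre-ERT2 libraries 2 were called (Grb10 higher and Cdkn1c lower), where 58.9% of all genes were called (30.4% higher and 28.6% lower) and 63.6% did not overlap. A called difference between the genotypes was therefore the common case in this table. Of all genes called, 3616 were higher and 3559 lower in KO cells among ERT2 libraries, and after median centring 2866 and 4747. Among Cre-ERT2 libraries the split was 3688 and 3473, and 2983 and 4789 after centring.

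The genes around H19 were compared because imprinted genes lie in clusters. Of 9 genes with a row within 500 kb of H19, 6 were called higher and 1 lower in KO cells among ERT2 libraries. Among Cre-ERT2 libraries 8 were higher and 0 lower. Igf2 is among those counted as higher with either vector, although its difference between genotypes is not read as a test. Over all genes 29.8% were higher and 29.3% lower among ERT2 libraries, and 30.4% and 28.6% among Cre-ERT2 libraries. On the far side from Igf2, Mrpl23 (a mitochondrial ribosomal protein gene, 0.31 and 0.38), Lsp1 (a leukocyte actin-binding protein gene, 1.87 and 2.02) and Tnni2 (a troponin gene, 0.41 and 0.34) were higher. Beyond Igf2, Tspan32 was 0.082 (limma adjusted p = 0.0526) and 0.14 higher and R74862 0.033 (not called) and 0.058 higher. The difference of Lsp1 was larger than that of Igf2 with either vector. With Cre-ERT2 in KO cells H19 and Igf2 fell, while Lsp1 (-8.5e-06) and Mrpl23 (-0.048) were not called and Tnni2 fell by 0.073.

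Grb10 had 6 such neighbours, and 4 were higher and 0 lower in KO cells among ERT2 libraries, against 4 and 1 among Cre-ERT2 libraries, where 59% and 58.9% of all genes were called in either direction. The nearest, Ddc, encodes aromatic L-amino acid decarboxylase and lies 32.4 kb from Grb10 and 41.2 kb from Ikzf1. It was 0.51 and 0.50 higher. Next came 1700042O10Rik (0.079 and 0.071) and Fignl1 (0.16 and 0.17), and Ikzf1 itself was 1.01 and 0.90 higher. The Ikzf1 guides cut in the same neighbourhood, and the part of editing at this locus in the level of Grb10 was not tested.

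Around Igf2r 3 of 10 genes were higher and 4 lower among ERT2 libraries, and 5 higher and 3 lower among Cre-ERT2 libraries, again beside 59% and 58.9% of all genes called. Of 3 genes around Impact, 2 were higher among ERT2 and 1 among Cre-ERT2 libraries. The nearest of them, Osbpl1a (an oxysterol-binding protein gene), was higher by 0.20 and 0.17, and its start lies near that of Impact. Around Cdkn1c 3 of 13 genes were higher and 5 lower among ERT2 libraries, and 5 higher and 4 lower among Cre-ERT2 libraries. These counts are descriptions and were not tested against all genes.

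**Figure D3:**
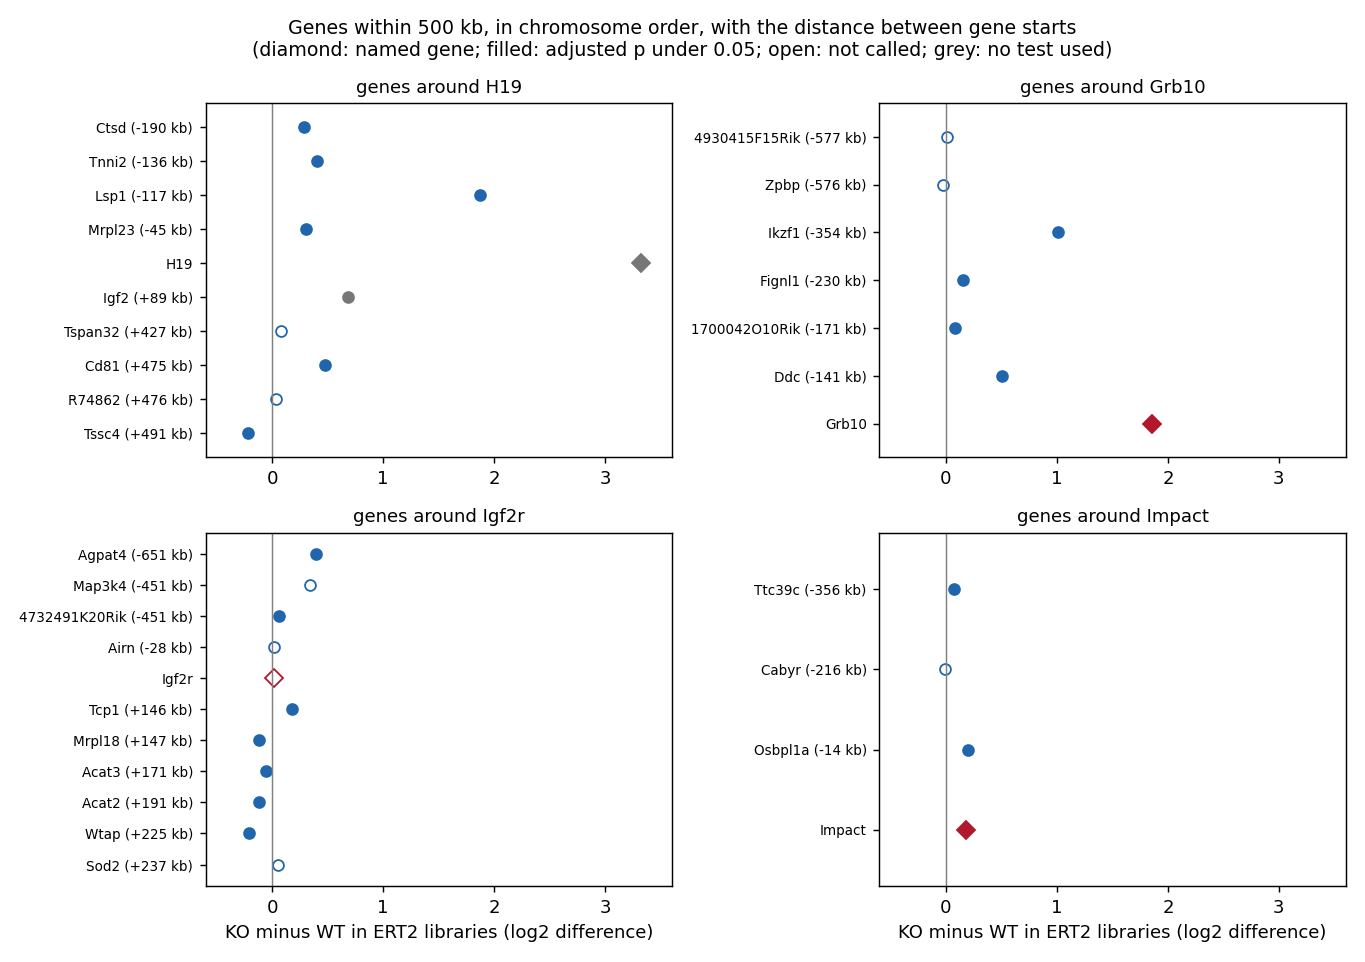
KO minus WT differences among ERT2 libraries (log2, horizontal axis) of the genes that lie within 500 kb of H19, Grb10, Igf2r and Impact, gene edge to gene edge, listed from lower to higher coordinates with the distance between gene starts. Diamonds are the named genes, filled points were called, open points were not, and grey points (H19, Igf2) have no test. Lsp1 (1.87) is the nearest to H19 (3.32) in size, and Ikzf1 (1.01) and Ddc (0.51) follow Grb10 (1.86).

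Other imprinted genes were taken from a list of 72, of which 29 had a row. Leaving out the 6 genes above, 7 of the remaining 23 were called higher and 3 lower in KO cells among ERT2 libraries (43.5% called, median difference 0.014). Among Cre-ERT2 libraries 11 were higher and 2 lower (56.5% called, median 0.047). The median over all genes was 0.0016 in both. The ERT2 share lay below the 59% of all genes, and the Cre-ERT2 share was close to the 58.9%. Neither share was tested against all genes. Those with the largest rise were Cmah (0.65 and 0.65), Ddc (0.51 and 0.50), Cd81 (0.47 and 0.53) and Gab1 (0.47 and 0.49). Cmah makes a sialic acid, Cd81 is a tetraspanin of the cell surface, and Gab1 is a signalling adaptor. The largest fall was that of Osbpl5 (-0.22 and -0.25), and Kcnq1ot1, the noncoding RNA of the Cdkn1c domain, was lower only among Cre-ERT2 libraries (-0.31, limma adjusted p = 0.00997). None of the 23 reached the differences of H19 or Grb10.

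With Cre-ERT2, 1 of these 23 genes was called in each genotype, H13 (a signal peptide peptidase gene), which rose by 0.10 in WT and 0.12 in KO cells. That is 4.3% of the list in each, beside 11.9% and 12.6% of all genes. The median effect of the 23 genes was -0.029 in WT and 0.018 in KO cells.

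**Figure D4:**
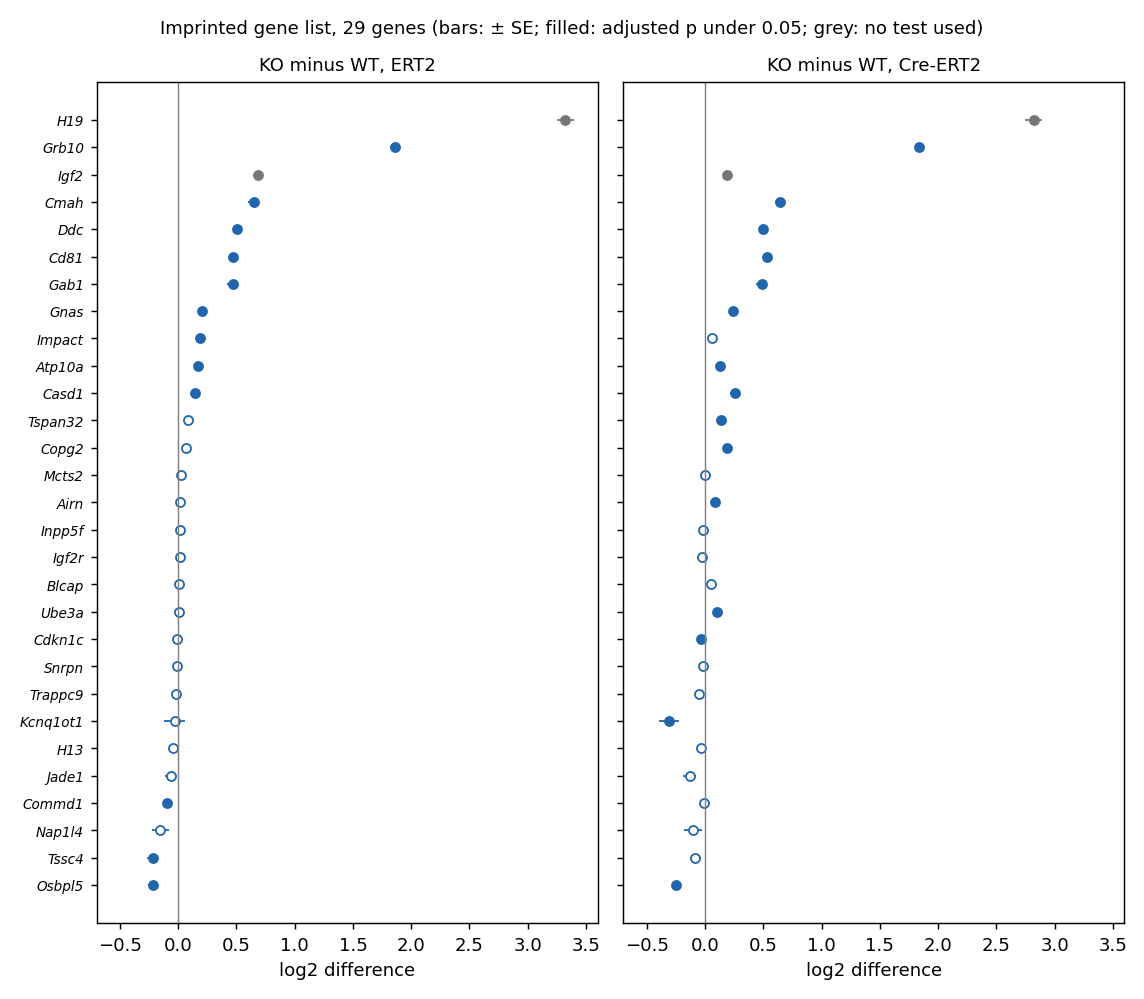
KO minus WT log2 differences of 29 imprinted genes among ERT2 and Cre-ERT2 libraries, ordered by the ERT2 value. Bars are ± SE, filled points were called, open points were not, and grey points (H19, Igf2) have no test. H19 and Grb10 stand apart at the top, and the others lie between -0.31 and 0.68.

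Genes that set or keep methylation at imprinted regions were examined next. Of 27 listed, 23 had a row. Among ERT2 libraries 7 were higher and 7 lower in KO cells (60.9% called), and among Cre-ERT2 libraries 6 and 7 (56.5%), close to the shares of all genes. Uhrf1, which recruits the maintenance methyltransferase to replicating DNA, was lower (-0.37 and -0.43), as was Ctcf (-0.22 and -0.25). The methyltransferase gene Dnmt1 differed by -0.012 (limma adjusted p = 0.623) and 0.0024 (limma adjusted p = 0.948), and Trim28, a corepressor at imprinted regions, by -0.025 and -0.040, not called. Of the dioxygenases that oxidize methylated cytosine, Tet2 was higher (0.43 and 0.29) and Tet3 lower (-0.30 and -0.34). With Cre-ERT2 only Setdb1 in WT (-0.068) and Ehmt2 in KO cells (-0.091) were called. That is 4.35% of the list in each genotype, beside 11.9% of all genes in WT and 12.6% in KO cells. Methylation was not measured.

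Igf2, Igf2r and Grb10 act in insulin-like growth factor signalling. Of 20 listed genes of this pathway 11 had a row, and 8 of them were not among the imprinted genes above. The receptor gene Igf1r had no row in the table analysed here. Among ERT2 libraries 4 of the 8 were higher and 3 lower in KO cells (87.5% called, 59% of all genes), and among Cre-ERT2 libraries 3 and 4 (87.5%, 58.9% of all genes). Igfbp4, which binds IGFs outside the cell, was 1.82 and 1.38 higher, and Insr, the insulin receptor gene, 0.59 and 0.51. Irs2, a receptor substrate, was lower (-0.94 and -1.04), as were Igf1 (-0.32 and -0.53) and the PI3K subunit gene Pik3r1 (-0.44 and -0.46). Igfbp4 rose with Cre-ERT2 by 0.92 in WT and by 0.48 in KO cells, where Igf2 and Grb10 fell. For this gene the difference between the effects was -0.44 (SE 0.070, limma adjusted p = 0.00325).

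The sorting pathway of Igf2r had all 20 listed genes in the table. Among ERT2 libraries 8 of the 19 others were higher and 4 lower in KO cells, and among Cre-ERT2 libraries 6 and 4. These are 63.2% and 52.6% of the list, beside 59% and 58.9% of all genes. The small receptor M6pr was 0.069 and 0.11 higher. Snx2, a sorting nexin of the retrieval complex, was 0.54 and 0.46 higher, whereas Cltc, the clathrin heavy chain gene, was lower (-0.28 and -0.35), as was the adaptor gene Ap1m1 (-0.31 and -0.33).

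The pathway of Impact was represented by 21 genes, 20 without Impact. Among ERT2 libraries 15 of these 20 were higher and 4 lower in KO cells (19 called, median 0.29), where 59% of all genes were called. Among Cre-ERT2 libraries 11 were higher and 1 lower (60.0%, median 0.23), close to the 58.9% of all genes. Eif2ak4, the GCN2 kinase gene itself, was 0.66 and 0.68 higher. Gcn1l1, the symbol of Gcn1 here, was lower by a difference of -0.078 among ERT2 libraries and did not differ by a called amount among Cre-ERT2 libraries (-0.0026, limma adjusted p = 0.946). The transcription factor Atf4 was 0.48 and 0.38 higher, and its targets Trib3 (0.93 and 0.77), Ddit4 (0.71 and 0.83) and Asns, the asparagine synthetase gene (0.31, and 0.051 not called) were higher as well. Cebpb was lower among ERT2 libraries (-0.59).

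With Cre-ERT2 in KO cells 10 of the 20 were lower and 0 higher (50.0% called, median -0.10), against 12.6% of all genes. Asns (-0.30), Trib3 (-0.26), Shmt2 (-0.21) and Atf4 (-0.20) were the lowest of them. In WT cells 4 were lower and 0 higher (20.0% called), against 11.9% of all genes (5.95% lower). The effect differed between genotypes for Asns (-0.26), Ddit3 (-0.17), Cebpb (0.62) and Slc7a11 (0.089). That is 20.0% of the 20 genes, beside 4.53% of all genes. The effect on Impact in KO cells was -0.039 and was not called.

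**Figure D5:**
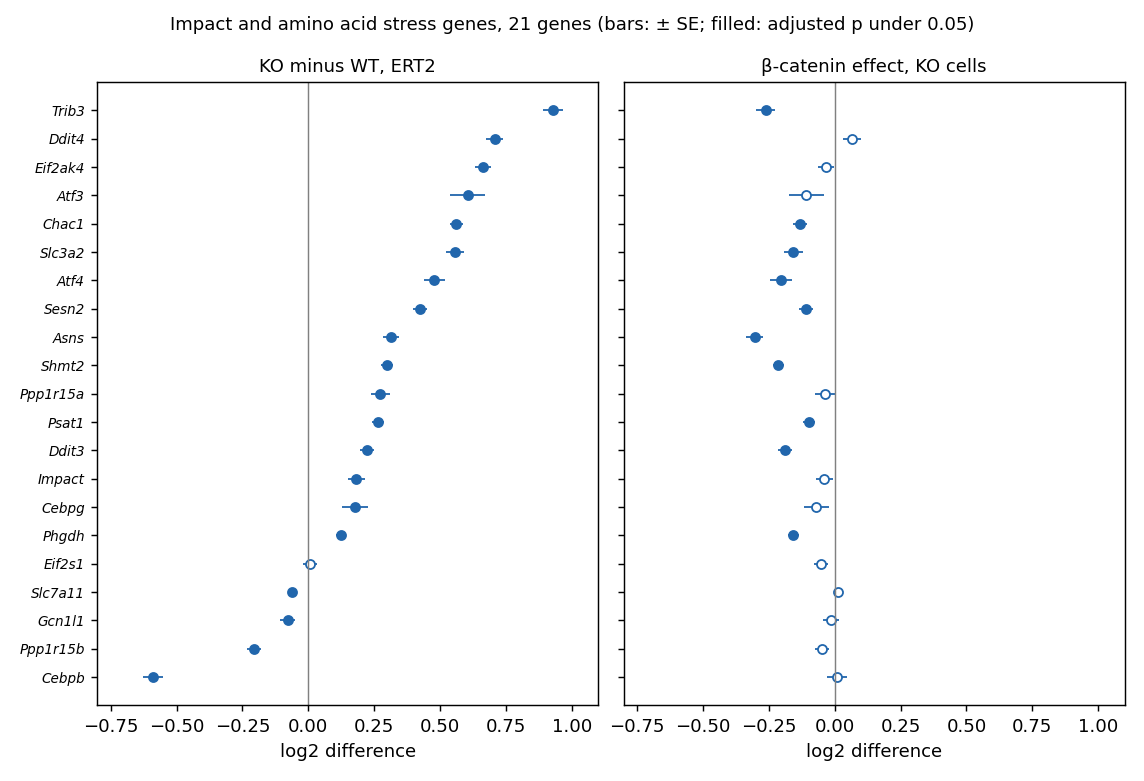
Log2 differences of Impact and 20 genes of the amino acid response, for KO minus WT among ERT2 libraries (left) and for the β-catenin effect in KO cells (right), ordered by the left panel. Bars are ± SE, filled points were called and open points were not. Most genes lie above 0 on the left and at or below 0 on the right, and Impact lies at 0.18 and -0.039.

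The genes most like each imprinted gene were found by Pearson's r over the 12 libraries, among genes whose SD over them was from 0.5 to 2 times its own. Because the libraries fall into WT and KO groups, such an r mostly restates the genotype difference, and it is given as a description. Those most like H19 were Prl2c5 (r = 0.997), Clic6, Ero1l, Crim1 and Mt2, out of 98 candidates. Those most like Igf2 were Tecpr1 (0.984), Mfsd4, Ptgir, Cpne1 and Egln3, out of 2478. Grb10 was most like Pik3ap1 (0.998), Nedd4, St3gal4, Fetub and Slc7a3.

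Markers of other cells were read beside these values. The mean log2 value of the 12 B lineage markers lay between 12.84 and 12.85 in ERT2 WT and 12.78 and 12.81 in Cre-ERT2 WT libraries. In KO libraries this mean lay between 12.55 and 12.56 with ERT2 and 12.50 and 12.54 with Cre-ERT2. Between genotypes it was lower where H19, Igf2 and Grb10 were high. Between vectors this did not hold: in KO cells the mean and all of H19, Igf2 and Grb10 were lower with Cre-ERT2. In WT cells the mean and Grb10 were lower with Cre-ERT2. Among ERT2 libraries 8 of these markers were called lower and 2 higher in KO cells, and among Cre-ERT2 libraries 9 and 2. Of all genes 59% and 58.9% were called. Of the 8 myeloid markers 3 had a row (Cd68, Itgam and Lyz2), and their mean was 5.50 to 5.53 in WT and 5.79 to 5.89 in KO libraries. They did not move together: 2 were called higher and 1 lower in KO cells among ERT2 libraries (median difference 0.061). Among Cre-ERT2 libraries 1 was higher and 1 lower (median 0.033). Of the 8 T cell markers 2 had a row (Cd5 and Zap70), with a mean of 6.83 to 6.95 in ERT2 and 7.47 to 7.58 in Cre-ERT2 libraries. Of the 6 endothelial markers only Pecam1 had one, and it was lower in KO cells (-1.03 and -0.96). The part of these shifts in the levels of the imprinted genes was not tested, and in such bulk libraries a change in the number of expressing cells and one in RNA per cell cannot be told apart.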

How the data were processed

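RNA expression was measured in 12 libraries in 4 groups of 3, taken from the sample titles. The authors aligned reads with STAR 2.7.6 to mm10, quantified them with Salmon 1.4.0 and normalized them with DESeq2 1.30.1, per the labels and methods. In the deposited table each gene has 1 normalized log2 value per library, and how the log2 values were transformed is not given in the sources used here. It holds no counts, so a count test was not possible and depth is unknown.

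The log2 values were fitted with limma 3.58.1 in R 4.3.3, with 4 group means, a mean-dependent prior and Benjamini-Hochberg adjustment over 12151 genes, and the fit was tested on simulated data. Exact 2-sided permutation tests compared 3 with 3 libraries, where the smallest p is 0.1. The genes and lists were chosen with earlier results of these data known. For H19, and after its flat WT values were seen also for Igf2, no p is given between genotypes or for the difference of the β-catenin effects. Named from each list were the called genes with the largest differences, up to 4 in each direction, and its defining genes, and from each neighbourhood up to the 3 nearest genes on each side. Gene positions came from the GENCODE annotation of GRCm38, which held 12111 of the 12151 gene identifiers. Replicate numbers of the titles did not pair the libraries. The alternatives were another scaling (median centring or quantile normalization), a pseudocount of 1, a mean of at least 8, a stricter threshold, a prior without mean dependence, a fit to the compared groups only, a block for replicate number and leaving out each library.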

Additional observations from a re-analysis of the deposited data

Results flagged for a closer look

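For 7 of 99 genes on the lists above the β-catenin effect in KO cells minus that in WT cells passed the threshold in the limma fit, as it did for 4.53% of all genes. The 7 include H19 and Igf2, which are not read as tests. H19 (difference -0.50, SE 0.11) and Igf2 (-0.50, SE 0.042) fell with Cre-ERT2 in KO cells. Both were flat in WT libraries, apart from ERT2 WT replicate 1 for H19, so whether a fall could be seen there is not known and their difference is not read as a test. Igfbp4 (-0.44, SE 0.070, limma adjusted p = 0.00325) rose in both genotypes, by 0.92 in WT and 0.48 in KO cells. In the amino acid response, Asns (-0.26, limma adjusted p = 0.00447) and Ddit3 (-0.17, limma adjusted p = 0.023) fell in KO cells, with effects of -0.30 and -0.19. Cebpb (0.62, limma adjusted p = 2.4e-05) and Slc7a11 (0.089, limma adjusted p = 0.0251) fell in WT cells, with effects of -0.61 and -0.074. Groups of 3 were too small for a test of single libraries that stand apart.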

How the results depend on the processing

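Of the alternatives to the 40 values for the 6 genes, the list of imprinted genes and the counts over all genes, 742 were taken as unchanged. They stayed on their side of the threshold, within the spread or, for a count, within a set factor of the reported count. Of the others, 11 lost a call or fell in number beyond that factor, 2 gained a call, and 2 moved by more than the replicate spread. Smaller changes of a count are thus among the 742. Leaving out each library in turn gave 383 to 595 genes called for the difference of the effects (550 as reported). A changed sign occurred in 15 of the 554 alternative values of the 6 genes, with none called in either fit, for the β-catenin effect on H19 and Igf2 in WT cells and on Cdkn1c in KO cells, for KO minus WT of Igf2r and for the difference of the effects on Grb10. Fitted to the compared groups only, 934 genes were called for the β-catenin effect in KO cells (1531 with all libraries). Median centring gave Cdkn1c 0.025 for the β-catenin effect in WT cells (limma adjusted p = 0.056), Cdkn1c -0.039 for KO minus WT among ERT2 libraries and Igf2 0.15 among Cre-ERT2 libraries, which was 0.16 with quantile normalization. Without a mean-dependent prior the Cdkn1c effect of 0.031 in WT cells had limma adjusted p = 0.163. With genes of a mean under 8 left out, 337 genes and 1 imprinted gene were called for the difference of the effects (550 and 2 otherwise). The imprinted count was also 1 when only list genes with a mean of 8 or more were counted, since Igf2 lies below that mean. These imprinted genes are H19 and Igf2, whose difference is not read as a test. At an adjusted p under 0.01 the calls were 787 and 790 in WT and KO cells, and 240 for the difference of the effects.

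Leaving out each library in turn gave, for the β-catenin effect on H19, -0.17 to 0.0039 in WT cells and -0.65 to -0.59 in KO cells. For the difference of these effects it gave -0.62 to -0.44 for H19 (-0.48 without ERT2 KO replicate 3, where it no longer passed the threshold). It gave 1 to 2 imprinted genes for this difference, which are H19 and Igf2 and are not read as tests. Impact gave 0.035 to 0.089 for KO minus WT among Cre-ERT2 libraries and was called without Cre-ERT2 WT replicate 1. After group means were subtracted from each gene, same-numbered replicates correlated by -0.068 to 0.31 over 7729 genes, so the numbers were not taken as pairs. With the replicate block the difference of the effects was called for 424 genes, and no call for the 6 genes changed. By this measure all 3 Cre-ERT2 KO libraries correlated best with the same-numbered ERT2 KO library, a hint from the data and not the design. The measure is again the one with group means subtracted. With Grb10 and Ddc left out of the imprinted list, chosen after seeing the data, 12 and 15 genes were called between genotypes among ERT2 and Cre-ERT2 libraries, against 14 and 17. These counts include H19 and Igf2, whose differences between genotypes are not read as tests.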
